A study of Mus musculus with 12 samples.

Results

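H2-M2 and H2-Q7 are mouse class I histocompatibility genes on chromosome 17. Each was read by a probe with a gene name on the arrays, A_51_P191463 for H2-M2 and A_51_P262079 for H2-Q7. The probes were chosen by name, with earlier results of these data known. Each had 10 spots per array, and its values were averaged over the spots not marked as outliers. They make up 2 of the 45 named genes on an array of 60691 transcript probes, most of which carry no gene symbol in the annotation used here. No other class I gene had a named probe.

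The study asked how knockdown of METTL3, the catalytic subunit of the enzyme complex that writes N6-methyladenosine (m6A) on RNA, changed RNA methylation and RNA amounts in MPC5 cells. MPC5 is a conditionally immortalised mouse podocyte line, a cell culture model of the epithelial cells that cover the glomerular filter of the kidney. The control group was 3 cultures given the non-targeting small interfering RNA siNC, and the knockdown group was 3 cultures given a small interfering RNA against METTL3 (Si#METTL3). All 6 cultures were kept for 24 h in 30 mmol/L glucose, so the groups share the high glucose and there is no culture without it. From each culture the RNA bound by the antibody (IP, labelled with Cy5) and the RNA left in the supernatant (Sup, labelled with Cy3) were hybridised to the same array, giving 12 samples on 6 arrays. The labels do not name the antibody. The series calls the replicates biological and does not describe how the cultures were separated. In the sample titles 1 knockdown array has the name of another with a suffix added. Whether that pair came from separately treated cultures is not stated. The knockdown came from 1 siRNA label in 1 cell line, and Mettl3 had no named probe, so the groups rest on the labels.

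Class I heavy chains span the cell membrane or are anchored in it, pair with beta-2-microglobulin and display short peptides to T cells and natural killer cells. H2-Q7 encodes the heavy chain of Qa-2, a non-classical class I molecule held at the surface by a glycosylphosphatidylinositol anchor. H2-M2 is a non-classical class I gene of the M region, at the other end of the same gene cluster from the classical K gene. Class I genes are known for induction by interferon and by NF-kB signalling. MPC5 belongs to the lines derived from mice whose temperature-sensitive T antigen is driven by an interferon-gamma-inducible class I promoter, and such lines are often grown with interferon-gamma. The labels do not say whether these cultures received it.

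In the RefSeq gene order H2-M2 stands between Olfr109 and Olfr110, and H2-Q7 stands between H2-Q6 and H2-Q10. RefSeq lists Q9 and Qa-2 among the synonyms of H2-Q7. H2-Q8 and H2-Q9 have entries of their own and are close copies of H2-Q7. Neither stood next to H2-Q7 in the order given, which covers protein-coding genes only. The probe sequences were not used here, so how much of the H2-Q7 signal came from such copies was not tested, and the H2-Q7 values are uncertain in that respect.

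The RefSeq windows of 250 bases upstream of the start of each gene are shown because they hold the letters that the promoters have in common. H2-M2 is given on the minus strand at chr17:37483555-37483804 and H2-Q7 on the plus strand at chr17:35438905-35439154, both in GRCm38.p6 and both printed 5′ to 3′ toward the gene. Capitals mark matches to the motifs described in the next paragraph, on either strand.
H2-M2: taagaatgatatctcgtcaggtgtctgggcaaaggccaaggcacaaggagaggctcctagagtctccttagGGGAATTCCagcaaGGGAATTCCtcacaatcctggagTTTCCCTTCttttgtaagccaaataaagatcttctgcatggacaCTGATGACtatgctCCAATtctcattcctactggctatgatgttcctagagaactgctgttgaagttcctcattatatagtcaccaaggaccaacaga
H2-Q7: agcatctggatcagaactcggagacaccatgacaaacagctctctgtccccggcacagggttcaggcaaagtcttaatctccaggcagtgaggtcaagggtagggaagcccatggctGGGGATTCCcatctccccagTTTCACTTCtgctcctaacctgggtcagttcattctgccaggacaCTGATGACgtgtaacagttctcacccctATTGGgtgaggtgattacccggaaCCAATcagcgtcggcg

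In order toward the gene, both windows held the kB letters GGGNNTTCC, the letters GAANNGAAA of the interferon-stimulated response element on the minus strand, the X2-like letters CTGATGAC and a CCAAT box, searched as ATTGG on both strands. Read toward the gene, the box was a CCAAT 84 bases before the start in H2-M2, and an ATTGG at 40 bases and a CCAAT at 16 bases in H2-Q7. The kB letters occurred 2 times in H2-M2, 179 and 165 bases before the start, and 1 time in H2-Q7, at 133 bases. The interferon-response letters began 142 bases before the start in H2-M2 and 113 in H2-Q7, and no 2 matches overlapped. Of the 32851 windows of the same length in the RefSeq table, searched on both strands, 4.98% held the kB letters, 6.31% the interferon-response letters, 0.861% the X2-like letters and 33.8% an ATTGG. A promoter was listed for 20 of 29 class I heavy-chain genes, the 2 measured genes included, and 6 of the 20 held the kB letters, 8 the interferon-response letters, 6 the X2-like letters and 17 an ATTGG. The longest run that both windows shared was ggacactgatgac, 13 bases that contain the X2-like letters, 103 bases before the start in H2-M2 and 73 in H2-Q7. This run stood in 5 of the 32851 windows, those of H2-D1, H2-Q4, H2-Q6 and the 2 measured genes. G and C made up 44.8% of the H2-M2 window and 54.4% of the H2-Q7 window. These matches describe the letters only, and no binding was measured here.

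Both genes were measured clearly on every array. All 60 spots of each gene were well above background in each channel, and none was saturated. The mean processed signal of H2-M2 in the IP channel was 1033, 587 and 1057 in control replicates 1 to 3 and 977, 681 and 922 in knockdown replicates 1 to 3. Control 2 was the dimmest of the 6, and the knockdown arrays lay inside the control range.

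In the Sup channel the H2-M2 signal was 877, 418 and 961 in the controls and 847, 541 and 724 in the knockdown arrays. The 6 arrays fell in the same order as in the IP channel, with control 2 again lowest. The H2-Q7 signal in the IP channel was 11122, 8287 and 7257 in the controls and 9027, 8864 and 5814 in the knockdown arrays. Its Sup signal was 18627, 13633 and 12792 in the controls and 17004, 12571 and 8486 in the knockdown arrays. Knockdown 3 was the lowest array for H2-Q7 in both channels, and control 1 was the highest. Probes can differ in how well they bind their targets, so the brighter H2-Q7 signal does not rank the RNA of one gene above the other.

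**Figure D1:**
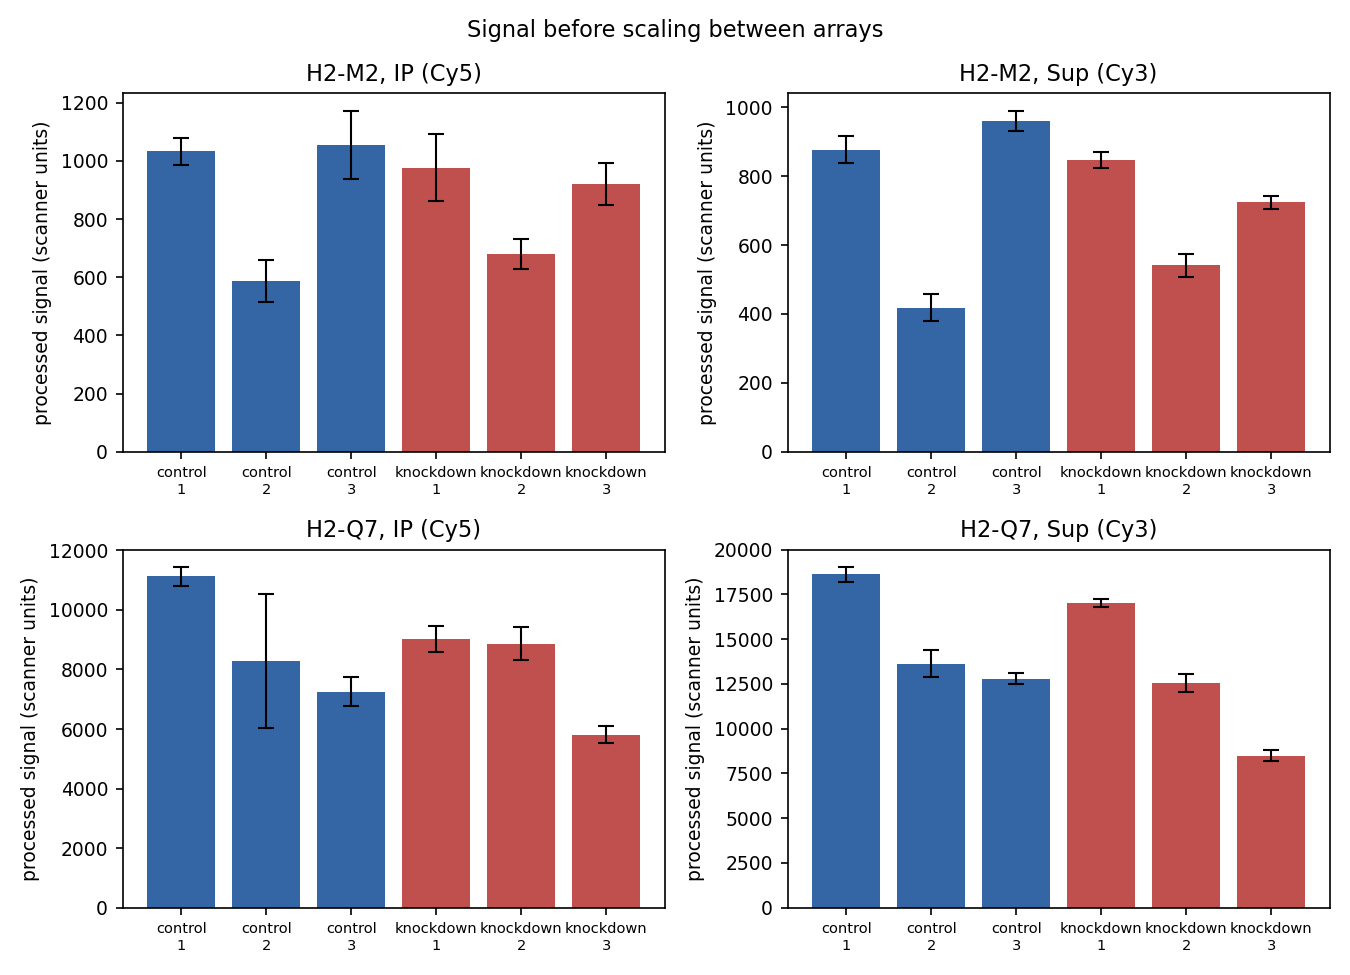
Mean processed signal of H2-M2 and H2-Q7 (arbitrary scanner units, linear axis from 0) in the IP and Sup channels of each of the 6 arrays, before any scaling between arrays. Control 2 is the dimmest array for H2-M2 in both channels (587 and 418), whereas knockdown 3 is the dimmest for H2-Q7 (5814 and 8486).

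The arrays themselves differed in brightness. The 75th percentile of the log2 IP signal was 6.72 on control 2 and 7.90 to 8.52 on the other 5 arrays, and for Sup it was 6.93 against 7.97 to 8.59. Control 2 was also the only array scanned at a separate time, so its scan and its culture cannot be told apart. Across the 6 arrays 35.1% to 50.3% of the transcript probes were well above background in the IP channel and 75.1% to 81.2% in the Sup channel. None of the 36 fixed markers of podocytes and other kidney or immune cell types had a named probe, so the labelled cell type was not checked. The precision of what follows is limited by the number of arrays, 3 in each group.

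To compare arrays, levels were expressed as log2 signal less the 75th percentile of the array, so that 0 is the level of the probe at that percentile. The total RNA level was taken from the sum of the 2 channels. This sum therefore holds the IP and Sup values and is no separate measurement. The median log2 IP over Sup of an array was -1.65 to -0.27 in the median signals less local background. In the processed signals, which are dye-normalized, it was 0.02 to 0.13. The 2 channels thus enter the sum at nearly equal brightness, whatever their share of the RNA. Total RNA here means this sum, and how it follows the RNA of the whole culture was not tested.

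Total RNA of both genes was lower on average in the knockdown cultures, but the groups overlapped and neither gene passed the test. The fitted level was 0.742 times that of the controls for H2-M2 and 0.641 times for H2-Q7. The scaled log2 level of H2-M2 total RNA was 1.56, 2.25 and 1.76 in controls 1 to 3 and 1.27, 1.33 and 1.68 in knockdown replicates 1 to 3. Control 2, the dimmest array before scaling, became the highest after it, and knockdown 3 lay above control 1.

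The H2-M2 mean was 1.86 ± 0.35 (SD, n = 3) in the controls and 1.43 ± 0.22 (SD, n = 3) in the knockdown cultures. The log2 difference was -0.43 with a 95% interval of -0.97 to 0.11, and limma with Benjamini-Hochberg adjustment over all 47647 tested probes gave an adjusted p of 0.807. The interval spans a range from a clear decrease to a slight increase.

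H2-Q7, the Qa-2 gene, had scaled log2 total RNA levels of 5.52, 6.70 and 5.08 in the controls and 5.11, 5.47 and 4.80 in the knockdown cultures. Control 2 stood more than a log2 unit above every other array, control 1 lay just above knockdown 2, and control 3 lay below 2 of the 3 knockdown arrays. The means were 5.77 ± 0.84 (SD, n = 3) and 5.12 ± 0.33 (SD, n = 3). The log2 difference was -0.64 with a 95% interval of -1.55 to 0.27, and the limma adjusted p was 0.807.

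The direction of the whole array turned with the processing. As reported, the mean was lower in the knockdown group for 72.9% of the probes tested for total RNA, and the median log2 difference of all of them was -0.15. That median was -0.04 with outlier spots kept, -0.01 when scaled on probes well above background on all 6 arrays and 0.07 in the authors' values. Less the reported median, the differences were -0.28 for H2-M2 and -0.49 for H2-Q7. A difference as low as that of H2-M2 or lower was found for 16.1% of the probes, and one as low as that of H2-Q7 for 6.40%. No probe passed the adjusted threshold of 0.05 for total RNA (0%), while 4.36% had an unadjusted limma p under 0.05. Neither gene was among them.

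**Figure D2:**
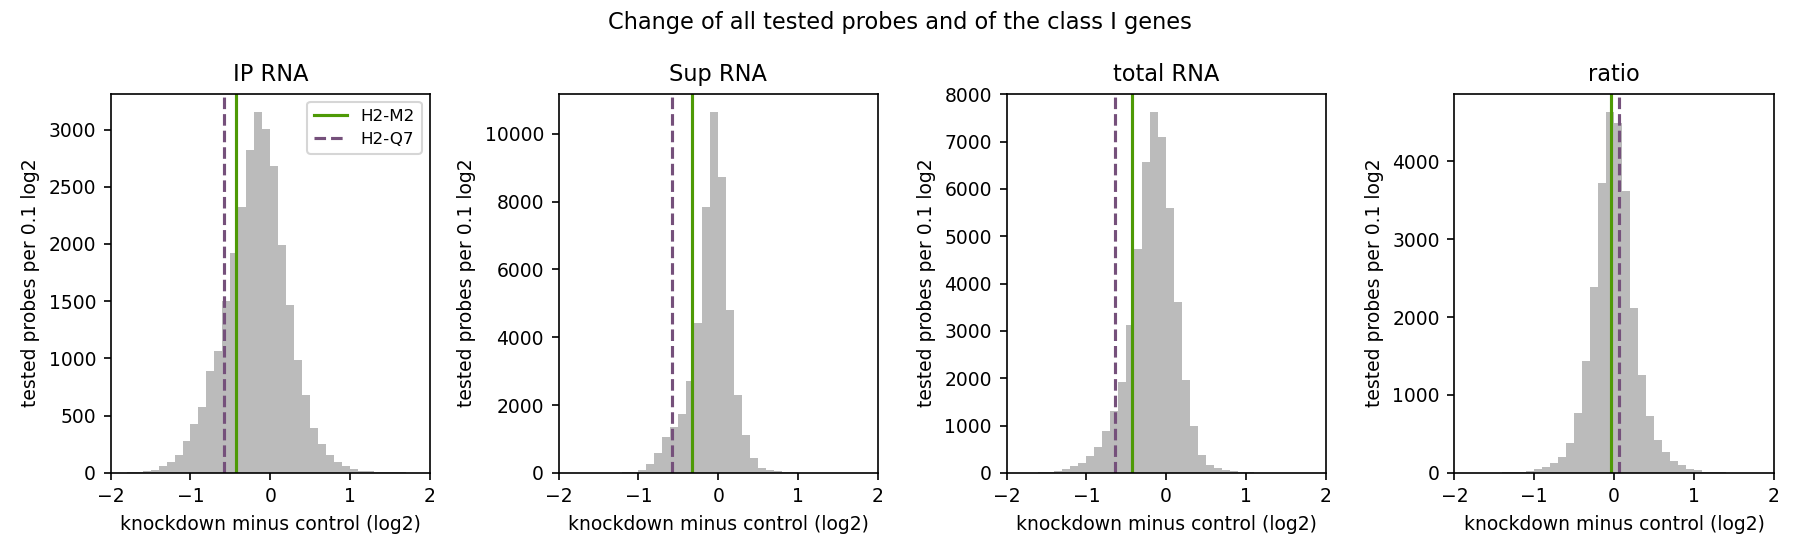
Distribution of the log2 difference (knockdown minus control) over all probes tested for each measure, with the differences of H2-M2 and H2-Q7 marked by vertical lines. Both genes lie left of centre for IP, Sup and total RNA and near the centre for the ratio, and between 4.96% (H2-Q7, Sup) and 61.0% (H2-Q7, ratio) of the probes lie at or left of their lines.

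The arrays carry replicate numbers, and for total RNA same-numbered control and knockdown arrays deviated together over all probes. The labels do not say what same-numbered arrays share. In the sample titles the array name of replicate 3 begins with N in the control group and S in the knockdown group. All other array names begin with HG. Replicate 3 may therefore belong to a separate set in both groups, but the meaning of the names is not stated. By number, H2-M2 total RNA differed by -0.29, -0.92 and -0.09 log2 units, and H2-Q7 by -0.41, -1.23 and -0.28. Both genes were lower in the knockdown array in 3 of 3 pairs, as were 29.1% of the probes with a value on all 6 arrays. When the replicate number entered the fit as a block, the 95% interval of the H2-Q7 difference was -1.20 to -0.08, with an unadjusted limma p of 0.0307 and an adjusted p of 0.555. That unadjusted p was under 0.05 for 8.93% of all probes. The H2-M2 difference with the block had an unadjusted limma p of 0.0953 and an adjusted p of 0.573.

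The size of these differences rested on control 2. Without it, the log2 difference in total RNA was -0.23 for H2-M2 and -0.18 for H2-Q7, and without control 3 that of H2-Q7 was -0.99, with an unadjusted limma p of 0.0353 and an adjusted p of 0.826. The H2-M2 difference was -0.20 in the authors' deposited values and -0.21 after another background correction (normexp), and that of H2-Q7 was -0.41 in the authors' values and -0.36 with arrays weighted by their quality.

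**Figure D3:**
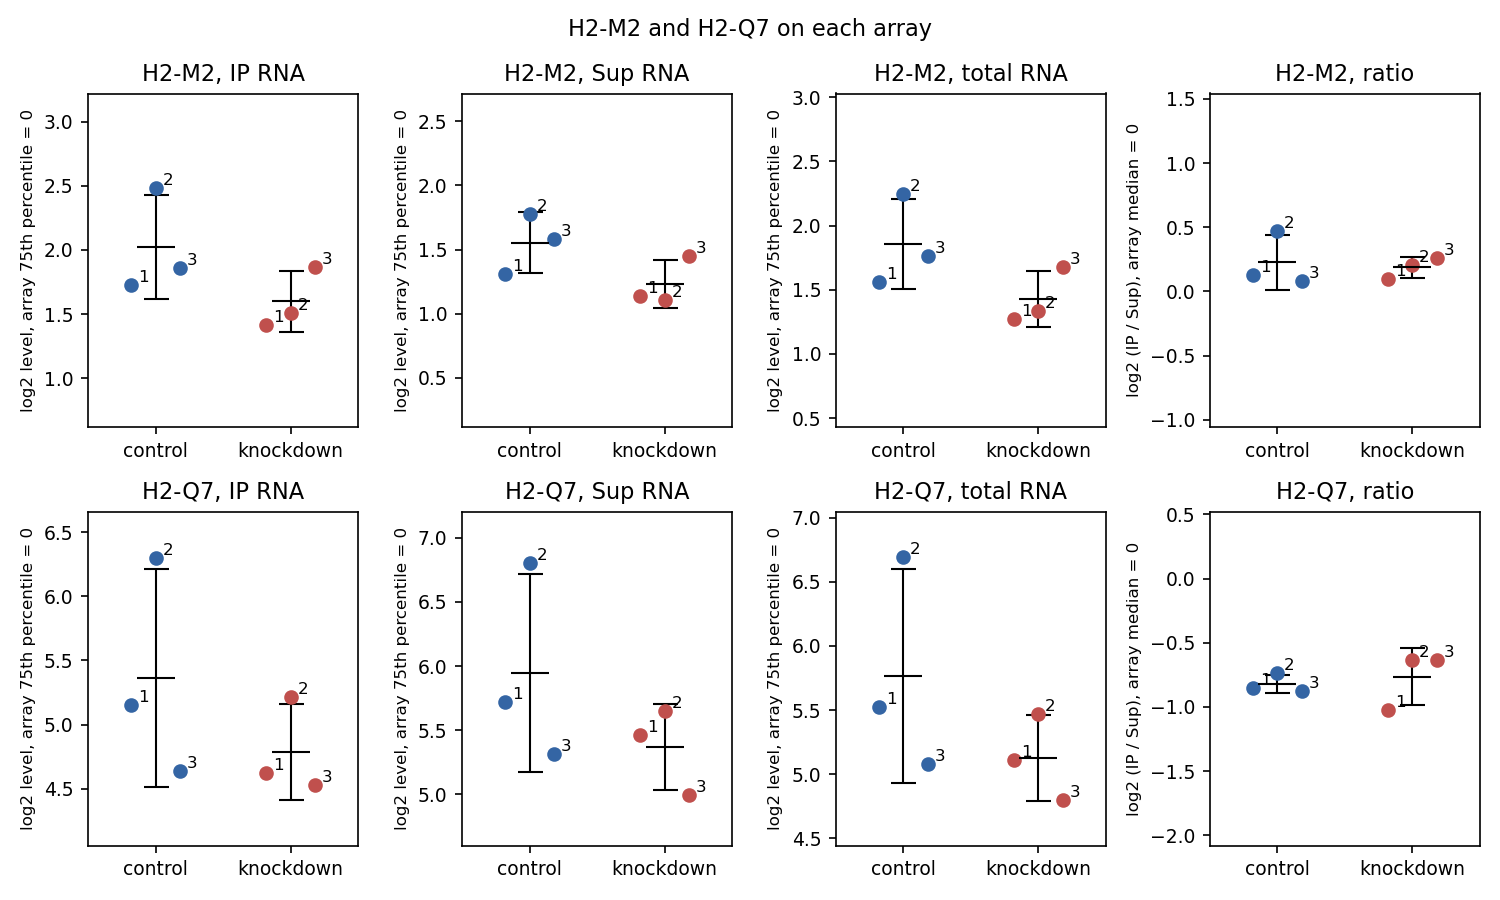
Level of H2-M2 and H2-Q7 on each array (points), with the mean and SD of the 3 arrays of each group, for IP, Sup and total RNA (log2, less the 75th percentile of the array) and for the ratio (log2 IP over Sup, centred on the array median). Control 2 is the highest array for both genes in the 3 level panels, and the control and knockdown points overlap in every panel.

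RNA in the supernatant, the fraction not held by the antibody, followed the total. H2-M2 Sup levels were 1.31, 1.77 and 1.58 in the controls and 1.14, 1.11 and 1.45 in the knockdown cultures. The means were 1.56 ± 0.23 (SD, n = 3) and 1.23 ± 0.19 (SD, n = 3), a log2 difference of -0.32 with a 95% interval of -0.77 to 0.12. Knockdown 3 lay above control 1, and the other 2 knockdown arrays lay below every control.

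H2-Q7 Sup levels were 5.72, 6.80 and 5.32 in the controls and 5.46, 5.65 and 4.999 in the knockdown cultures. The means were 5.95 ± 0.77 (SD, n = 3) and 5.37 ± 0.33 (SD, n = 3), a log2 difference of -0.58 with a 95% interval of -1.45 to 0.30. Controls 1 and 2 lay above all 3 knockdown arrays, and control 3 lay below 2 of them. The limma adjusted p was 1.00 for each gene over the 48519 tested probes.

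For Sup RNA 63.4% of the probes had the lower mean in the knockdown group. The median difference was -0.06, and 0.07 in the authors' values. No probe passed the adjusted threshold (0%) and 1.21% had an unadjusted limma p under 0.05. A Sup difference as low as that of H2-Q7 or lower was found for 4.96% of the probes, and one as low as that of H2-M2 for 14.5%. Both genes were lower in 3 of 3 same-numbered pairs, as were 20.2% of the probes with a value on all 6 arrays. With the replicate block the H2-Q7 Sup difference had an unadjusted limma p of 0.0333, which was under 0.05 for 7.21% of all probes, and an adjusted p of 0.691. Without control 2 the Sup differences were -0.21 for H2-M2 and -0.15 for H2-Q7, and without control 3 that of H2-Q7 was -0.89. The H2-Q7 difference was -0.08 after quantile normalization of each channel.

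RNA bound by the antibody was also lower on average in the knockdown cultures, with overlapping groups. H2-M2 IP levels were 1.72, 2.48 and 1.86 in the controls and 1.41, 1.51 and 1.87 in the knockdown cultures. The means were 2.02 ± 0.40 (SD, n = 3) and 1.60 ± 0.24 (SD, n = 3), a log2 difference of -0.42 with a 95% interval of -1.08 to 0.23. Knockdown 3 equalled control 3 to within 0.01 log2 units.

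H2-Q7 IP levels were 5.15, 6.30 and 4.64 in the controls and 4.62, 5.21 and 4.53 in the knockdown cultures. The means were 5.36 ± 0.85 (SD, n = 3) and 4.79 ± 0.37 (SD, n = 3), a log2 difference of -0.58 with a 95% interval of -1.58 to 0.43. Knockdown 2 lay above controls 1 and 3. The limma adjusted p was 0.787 for each gene over the 27183 tested probes.

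The median IP difference of all tested probes was -0.15, and 67.4% of them had the lower mean in the knockdown group. That median turned to 0.16 with spike-in scaling, 0.13 when scaled on probes well above background on all 6 arrays and 0.07 in the authors' values. No probe passed the adjusted threshold for IP RNA (0%), and 4.09% had an unadjusted limma p under 0.05. Without control 2 the IP differences were -0.19 for H2-M2 and -0.11 for H2-Q7, where the median difference of all probes was -0.11, and without control 3 that of H2-Q7 was -0.94. Scaling on the spike-in probes gave -0.11 for H2-M2 and -0.26 for H2-Q7.

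The share of an RNA that the antibody binds is read from the ratio of IP to Sup within an array, given as log2 and centred on the median of the array. The dye normalization of the scanner software and this centring can remove a change that all probes share. A gene is therefore read only relative to the other probes. On that scale the ratio did not differ between the groups beyond the spread of the arrays for either gene. The H2-M2 ratio was 0.13, 0.47 and 0.08 in the controls and 0.10, 0.20 and 0.26 in the knockdown cultures. All 6 arrays lay above the array median, and the knockdown arrays lay inside the control range.

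The H2-M2 mean ratio was 0.23 ± 0.21 (SD, n = 3) in the controls and 0.19 ± 0.08 (SD, n = 3) in the knockdown cultures. The difference was -0.04 with a 95% interval of -0.47 to 0.39, and the limma adjusted p was 1.00. Of 15 estimates from alternative settings that differed from the reported one, 5 had the other sign, the omission of control 2 among them, which gave 0.08.

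The H2-Q7 ratio was -0.85, -0.74 and -0.87 in the controls and -1.02, -0.63 and -0.63 in the knockdown cultures. All 6 arrays lay below the array median. The knockdown arrays fell on either side of the controls, 1 below and 2 above. The means were -0.82 ± 0.07 (SD, n = 3) and -0.76 ± 0.22 (SD, n = 3). They differed by 0.06, with a 95% interval of -0.37 to 0.49 and a limma adjusted p of 1.00. The sign turned in 3 of 15 differing estimates, to -0.35 after quantile normalization of each channel.

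Over the 27127 probes tested for the ratio, 51.1% had the lower mean in the knockdown group. The centring on the median of these probes holds that share near an even split, so it is no result of the knockdown. No probe passed the adjusted threshold (0%), and 2.98% had an unadjusted limma p under 0.05. The H2-M2 difference was as high as or above that of 44.0% of the probes and the H2-Q7 difference that of 61.0%, near the middle of the array. The median half-width of the 95% interval over all probes was 0.53 log2 units, so a change in the ratio smaller than that was mostly not detectable with 3 arrays in each group.

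The dyes were not swapped, and the level of the ratio differed between the processed signals and the median signals less local background. The latter have neither the background model nor the dye normalization of the scanner software. They also keep the outlier spots, and their array median is taken over spots instead of probes. Which of these steps moved the ratio was not tested. From the median signals, less the array median, the H2-Q7 ratio was -0.26, 0.53 and -0.10 in the controls and -0.18, -0.03 and -0.18 in the knockdown cultures. H2-Q7 thus lay below the array median on 5 of 6 arrays instead of all 6, and by less. The H2-M2 ratio from the median signals was -0.02, 0.18 and -0.03 in the controls and 0.06, -0.05 and 0.16 in the knockdown cultures, on either side of the median. Control 2 was the highest array for both genes on this scale.

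Whether the genes changed unequally was tested on the difference between their log2 values within each array, which for IP, Sup and the ratio no factor per array and channel can move. For total RNA the signed H2-M2 change less the signed H2-Q7 change was 0.21 log2 units, H2-M2 having the smaller decrease, with a 95% interval of -1.03 to 1.45 and a two-sided exact permutation p of 0.6. For the ratio it was -0.10, with an interval of -0.43 to 0.23 and an exact permutation p of 0.5. The exact permutation p was 0.6 for Sup and 0.7 for IP RNA. With 3 arrays against 3 the smallest p that this test can give is 0.1. These intervals and tests take no account of the replicate numbers. By number, the total RNA values were 0.13, 0.31 and 0.19 and the Sup values 0.08, 0.49 and 0.18, above 0 in 3 of 3 pairs. The exact permutation p within pairs was 0.25 for each, the smallest that 3 pairs allow.

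Replicate spread of the IP, Sup and total RNA levels was larger for H2-Q7 than for most of the array. The SD of its total RNA level over the controls was 0.84, against a median of 0.26 over all tested probes, and that of H2-M2 was 0.35. In the knockdown cultures the SDs were 0.33 for H2-Q7 and 0.22 for H2-M2, against a median of 0.25. The H2-Q7 ratio did not share this spread. Its SD was 0.07 over the controls, against a median of 0.30, and 0.22 over the knockdown cultures, against 0.21. Over the spots of 1 array the median SD was 0.14 log2 units for H2-M2 in the IP channel, 0.05 in the Sup channel, and 0.08 and 0.04 for H2-Q7. The scanner software marked 14 of the 60 H2-Q7 spots in the IP channel as outliers, 6 of them on control 1 and 4 on control 2, and those spots were left out. The 6 H2-Q7 spots used on control 2 in the IP channel had the highest spot SD, 0.40 log2 units. The SD between arrays for that measure was 0.85 in the controls and 0.37 in the knockdown cultures. A spot SD is not the error of the mean over the spots, so these values are not directly comparable. For H2-M2 it marked 2 of 60 in the IP channel and 0 in the Sup channel.

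Among the named genes, H2-M2 and H2-Q7 were not each other's nearest in profile. Likeness was measured as the root mean square difference over the 6 arrays between total RNA profiles, each less its own mean, against the 40 other named probes that passed the filter. Seen from H2-M2, H2-Q7 ranked 34 of 40 with a difference of 0.46 log2 units, against a median of 0.33. Seen from H2-Q7, whose distances to other genes were larger, H2-M2 ranked 12 of 40.

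The profile nearest to H2-M2 was that of Gamt, which encodes the enzyme that makes creatine from guanidinoacetate, at 0.15 log2 units. Gpi1, the glucose-6-phosphate isomerase of glycolysis, came next at 0.17, and Tm9sf1, a transmembrane protein of the TM9 family, at 0.18. Nearest to H2-Q7 was Gsdmd, gasdermin D, the pore-forming protein of pyroptosis, at 0.19. Duox1, an oxidase that makes hydrogen peroxide, followed at 0.27 and Tm9sf1 at 0.31.

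Control 2 was the highest of the 6 arrays for each of these 5 genes, as for the members. The genes were picked for likeness to the members, so the shared peak follows from that choice. How many other probes were highest on control 2 was not counted. Gsdmd total RNA was 3.84, 4.94 and 3.67 in the controls and 3.57, 4.07 and 3.60 in the knockdown cultures. As for H2-Q7, control 2 stood apart and knockdown 2 was the highest of its group. The log2 differences between groups ran from -0.26 for Gamt to -0.40 for Gsdmd, with limma adjusted p from 0.807 for Gamt and Tm9sf1 to 0.840 for Duox1.

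**Figure D4:**
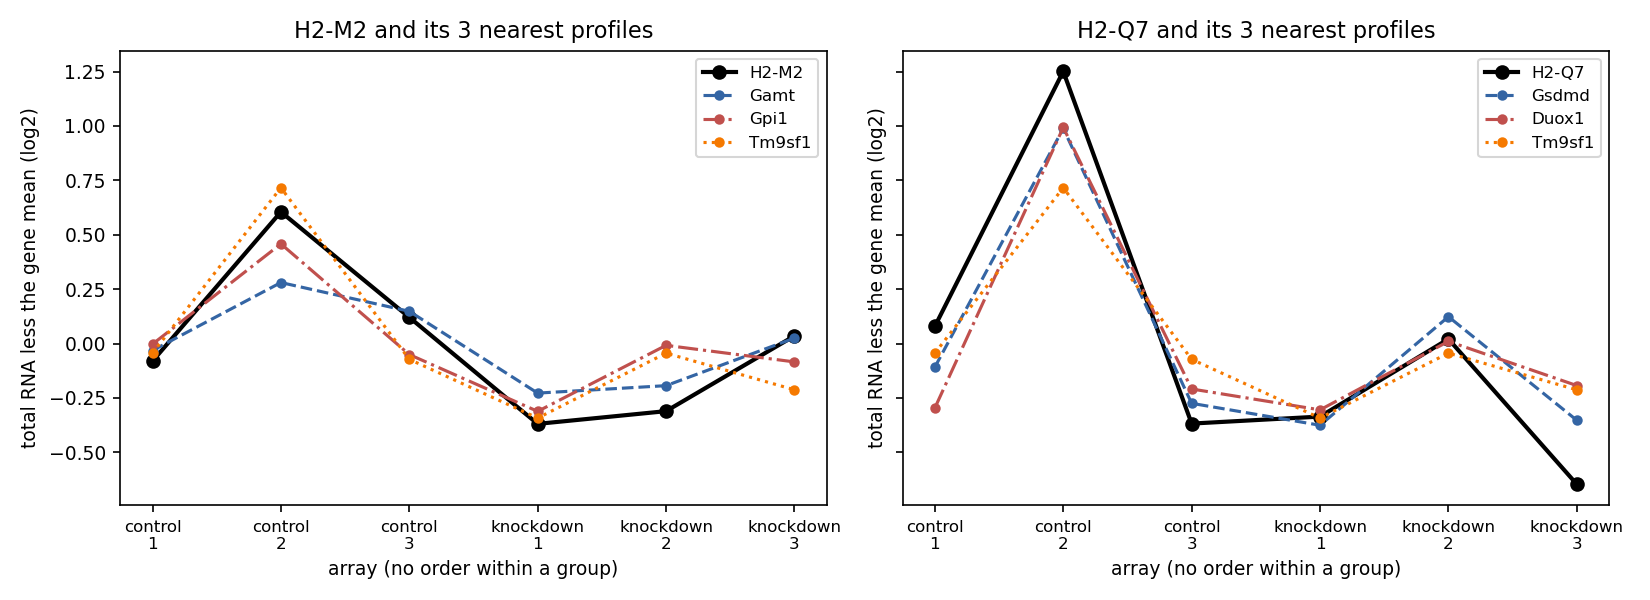
Total RNA profiles over the 6 arrays (log2 level, each gene less its own mean) of H2-M2 and H2-Q7 with the 3 named genes most like each. All profiles peak at control 2, which follows from choosing genes by likeness to the members, and H2-Q7 has the tallest peak.

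The 19 alternative settings gave 15 estimates that differed from the reported one. The other filters and the replicate block leave the estimate as it is, and the scan term is the same fit as the omission of control 2, the only array of its scan. In all 15 the IP, Sup and total RNA differences of both genes were below 0, and none of the 19 settings put either gene past the adjusted threshold. For total RNA they ranged from -0.58 to -0.20 for H2-M2 and from -0.99 to -0.18 for H2-Q7. Less the median difference of all probes in the same setting, total RNA differences ranged from -0.41 to -0.11 for H2-M2 and from -0.84 to -0.06 for H2-Q7, the smallest being the H2-Q7 value without control 2. For H2-Q7 IP RNA the difference less the median was below 0 in 16 of 19 settings and was 0.0019 without control 2 (the same fit as the scan term) and 0.0012 with array weights.

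**Figure D5:**
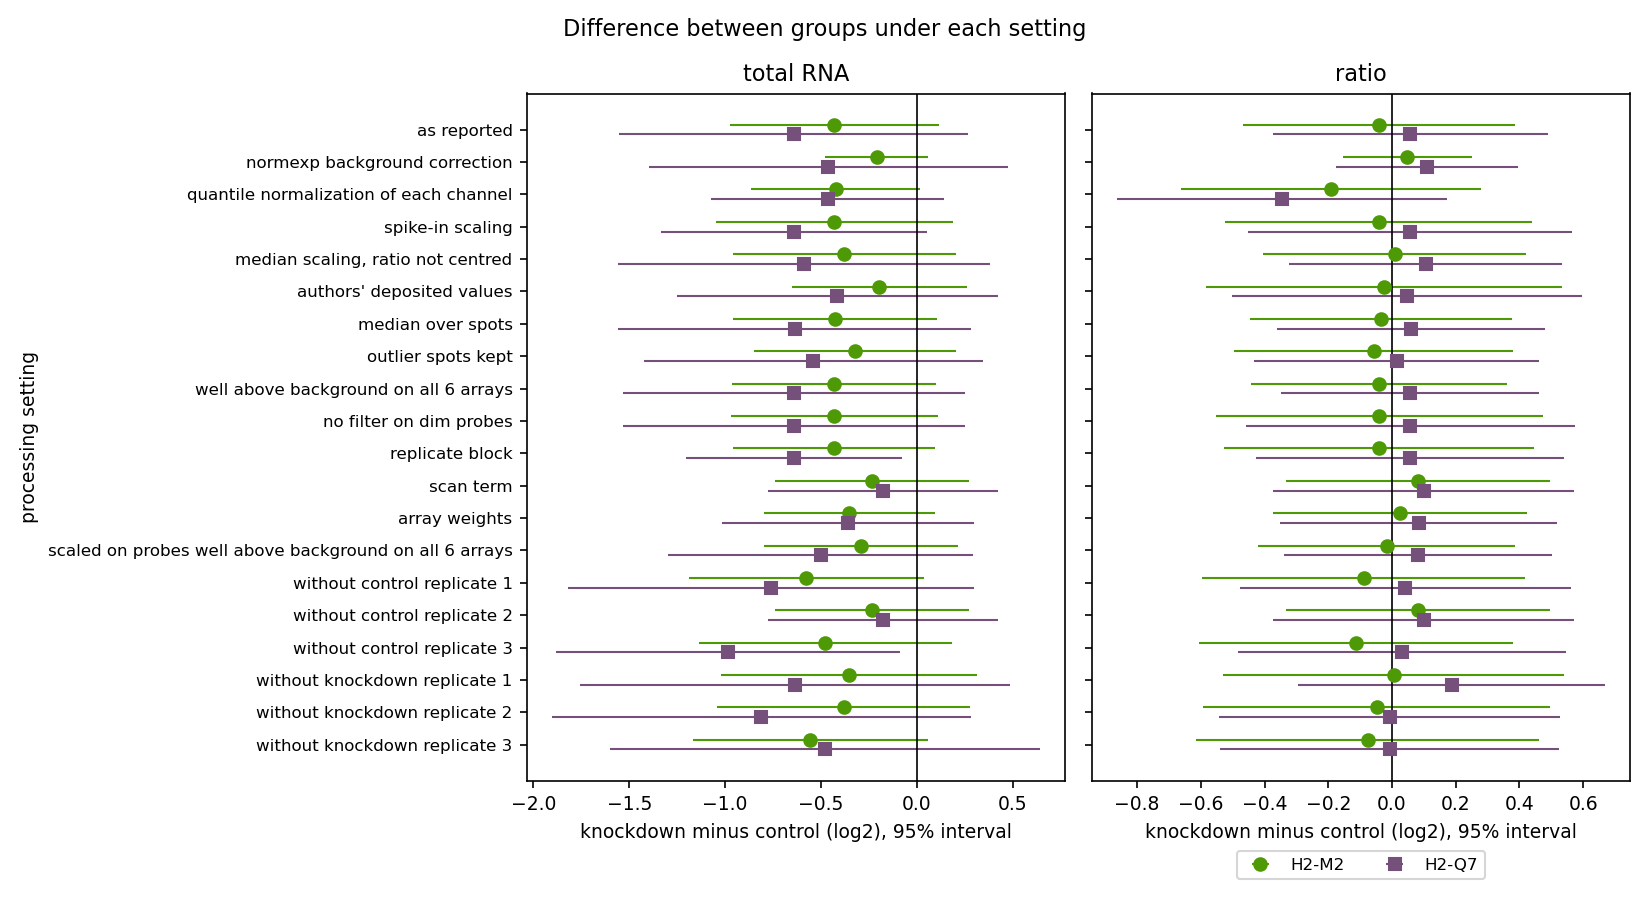
Log2 difference between knockdown and control with its 95% interval for H2-M2 and H2-Q7 under the reported setting and 19 alternatives, for total RNA and for the ratio. Total RNA differences all lie below 0, between -0.99 and -0.18 for H2-Q7, while ratio differences lie on both sides of 0.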

How the data were processed

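Arrays were read with Agilent Feature Extraction 11.0.1.1, per the file headers. The deposited scanner files hold the processed intensity of each spot, background-subtracted and dye-normalized by that software, beside median intensities. The authors' deposited table holds log2 values of 27920 probes. These equal the log2 of the mean processed intensity over all spots less a constant per array and channel, to within 5e-09. Its direction and scale were thereby settled, while the origin of the centring constants is unknown. Its column medians were 1.45, 1.21, 1.28, 1.52, 1.36 and 1.38 for IP and 1.54, 1.46, 1.64, 1.67, 1.77 and 1.56 for Sup, in the order controls 1 to 3 then knockdown replicates 1 to 3.

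Here outlier spots were left out, the processed intensities averaged over spots, and log2 taken. A level is less the 75th percentile over all 60691 transcript probes. The log2 ratio is IP (Cy5) over Sup (Cy3), centred on the array median. Tests took the probes that were well above background on 3 or more of the 6 arrays and had 2 values per group. Tests were limma 3.58.1 (lmFit and eBayes, R 4.3.3) with Benjamini-Hochberg adjustment at 0.05, and exact permutation tests. The fits were also tried on simulated data, and the outcome is not given here.

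The genes named were the 2 class I genes, for each the 3 named probes with the most similar total RNA profile, and any named probe of a class I pathway list or of Mettl3. The pathway list (53 genes), the cell type markers (36) and Mettl3 had 0 named probes each. Genes and lists were chosen with earlier results of these data known. Same-numbered arrays were examined for pairing by the correlation of their deviations from the group means. It was 0.18 to 0.34 for total RNA and 0.32 to 0.58 for Sup, so those numbers were taken as pairs. The choice rests on the same data as the block fit, and differently numbered arrays were not compared. Control 2 and knockdown 2 were the dimmest arrays of their groups, and whether brightness gave the correlation was not tested.

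Alternatives were normexp background correction (offset 50, on median foreground and background signals, as the files hold no mean signal), quantile, spike-in (15 probes) and median scaling, the authors' values, the median over spots, outlier spots kept, other filters, the replicate block, a scan term, array weights and each array left out. Scaling on probes well above background on all 6 arrays was added after seeing the data.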

Additional observations from a re-analysis of the deposited data

How the results depend on the processing

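All differences in this paragraph are log2, knockdown minus control. The H2-M2 ratio changed sign with normexp (0.048), median scaling without centring (0.0080), a scan term (0.082) and array weights (0.025), and ranged from -0.11 to 0.082 over the fits that left out 1 array each. The H2-Q7 ratio was -0.35 after quantile normalization and -0.0075 to 0.19 with 1 array left out. The H2-M2 change less the H2-Q7 change was 0.16 for the ratio and -0.14 for Sup after quantile normalization. With 1 array left out it was -0.18 to -0.017 for the ratio, -0.11 to 0.44 for IP, -0.067 to 0.58 for Sup and -0.077 to 0.51 for total RNA. The cause was not tested. The number of probes past the adjusted threshold, 0 in each measure as reported, was 12 for Sup and 1 for total RNA with spike-in scaling, 1 each for IP and total RNA when a scan term was fitted, 2 for IP and 1 for total RNA with array weights, and 0 to 1 for IP and for total RNA with 1 array left out. Neither class I gene was among them. The replicate block, with 0 adjusted calls in every measure, raised the probes with an unadjusted limma p under 0.05 from 2076 to 4255 for total RNA, from 585 to 3498 for Sup, from 1111 to 1989 for IP and from 809 to 893 for the ratio. Same-numbered arrays correlated at 0.25, 0.30 and 0.069 for IP and at -0.0031 to 0.093 for the ratio. The numbers were taken as pairs only in measures where every correlation passed a fixed cut. For IP only the lowest fell short of it, so the rule does not show that pairing is absent there. The block changed no adjusted call. The split of those unadjusted calls moved with the processing. For total RNA it was 149 higher and 1927 lower as reported, against 452 and 660 with outlier spots kept, 53 and 7008 with normexp, 543 and 164 in the authors' values and 510 and 655 when scaled on probes well above background on all 6 arrays. For IP it was 198 and 913 as reported, against 401 and 354 with outlier spots kept, 1078 and 96 with spike-in scaling, 627 and 146 in the authors' values, 601 and 116 when scaled on probes well above background on all 6 arrays and 342 and 495 with median scaling. For Sup it was 80 and 505 against 151 and 88 in the authors' values, 361 and 492 with quantile normalization and 162 and 318 when scaled on probes well above background on all 6 arrays. For the ratio it was 441 and 368 against 263 and 1406 with quantile normalization, 216 and 327 with spike-in scaling and 606 and 262 with median scaling. The authors' values keep outlier spots and cover fewer probes, so their splits are not from scaling alone. The scan term is the same fit as the omission of control 2.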
